A study of Homo sapiens with 32 samples.

Results

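The difference between genotypes in the transcriptional response to 24 h of TGFβ1 was examined in MCF10A cells with RNA sequencing (RNA-seq). MCF10A is an established, non-tumorigenic line of human mammary epithelial cells. The study followed clones with an intact or an edited JUNB gene over 3 days of TGFβ1. Of its 32 libraries, 16 enter this comparison. Libraries of 1 clone and 1 replication number form a series, written as clone and replication (27-2 is clone 27, replication 2). Each series gives 1 paired change, the log2 CPM (counts per 1000000 counts of the library) after TGFβ1 for 24 h minus that in solvent. The 4 changes of JUNB-edited series (clones 1 and 65) were set against the 4 changes of WT series (clones 27 and 2). The difference, mut change minus WT change, is called the interaction. It is positive where a gene fell less or rose more in mut cells, and negative where it rose less or fell more.

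WT solvent and mut solvent cells received the carrier solution, and the 24 h groups received TGFβ1 at 5 ng/ml. GEO's labels give the solvent groups the time 0 h. By the study's methods all wells were harvested together, so that solvent cells had been kept in solvent for 72 h. Mut clones were made with CRISPR/Cas9 and carry an extended deletion in JUNB, which leaves a smaller JUNB polypeptide. Every clone grew from 1 edited or unedited cell, so that each genotype is represented by 2 clones and the replications of a clone repeat the same line.

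TGFβ1 binds a pair of serine/threonine kinase receptors, which phosphorylate SMAD2 and SMAD3. The SMADs enter the nucleus and act on DNA together with other transcription factors, among them the activator protein 1 (AP-1) dimers of JUN and FOS family members, to which JUNB belongs. In mammary epithelial cells TGFβ1 is known for 2 effects, an arrest of the cell cycle in G1 and an epithelial-mesenchymal transition (EMT), in which cells gain extracellular matrix, proteases and motility.

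Library totals of the 32 libraries lay between 39702412 and 54651906 counts, and 3 counts correspond to 0.0549 to 0.0756 CPM. All 9 markers of basal mammary epithelium, KRT5, KRT14 and TP63 among them, passed the low-count filter and summed to 12161 to 21249 CPM in the 16 libraries, and 7 luminal markers summed to 246 to 493 CPM. Fibroblast markers summed to 43.1 to 67.5 CPM in WT solvent and 239 to 340 CPM in WT 24 h libraries, and to 54.6 to 80.03 and 151 to 221 CPM in mut libraries. These sums moved with the treatment and less so in mut cells, and their part in the results was not tested. Leukocyte markers summed to 18.7 to 34.7 CPM and endothelial markers to 4.36 to 28.6 CPM, while PTPRC, CD3E, LYZ and VWF did not pass the filter. In bulk RNA, fewer cells that use a gene and less RNA per cell cannot be told apart. Among WT solvent libraries the series 27-2 stood furthest from the others, while at 24 h the widest WT distance was between 27-1 and 27-2. Among mut libraries the change in series 1-2 was the smallest for many genes below. Counts are therefore also given without series 27-2 and 1-2.

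JUNB, the edited gene (ENSG00000171223, GRCh38 chromosome 19, 12791486 to 12793315, plus strand), was examined first. In WT solvent libraries it was at 89.7, 94.0, 117 and 90.0 CPM in series 27-1, 27-2, 2-1 and 2-2, and after 24 h at 297, 261, 249 and 277 CPM. In mut solvent libraries it was at 69.2, 77.5, 128 and 172 CPM in series 1-1, 1-2, 65-1 and 65-2, and after 24 h at 253, 254, 380.2 and 518 CPM. Every treated library lay above every solvent library, and the paired changes of the genotypes overlapped. The log2 change was 1.48 ± 0.33 (SE) in WT and 1.68 ± 0.33 in mut cells, an interaction of 0.21 ± 0.46 with a limma-voom adjusted p of 0.847. An exact two-sided permutation test of the 4 against 4 changes gave p = 0.286, where 0.0286 is the smallest value possible. The transcript level therefore does not check the genotype labels. JUNB overlaps HOOK2 on the opposite strand, and without strand information reads from the overlap cannot be assigned.

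At 24 h the response was smaller in mut cells for most genes whose response differed. Of 14865 genes tested, 1434 (9.65%) had an interaction at a Benjamini-Hochberg adjusted p under 0.05 in limma-voom. This fit compares group means and does not use the pairing of the libraries. Interactions, SEs and adjusted p in the text are from it unless named otherwise. The mut change was higher for 1147 genes (7.72%) and lower for 287 (1.93%). Within WT cells 7752 genes (52.1%) changed at 24 h, of which 2098 (14.1%) rose and 5654 (38.0%) fell. Within mut cells 3541 (23.8%) changed, of which 1004 (6.75%) rose and 2537 (17.1%) fell. This excess of falls was present with library-size scaling and not with TMM (trimmed mean of M-values) factors, which gave 3499 rises and 3450 falls in WT and 1376 rises and 1195 falls in mut cells. DESeq2 with its size factors gave 3592 rises and 3503 falls in WT and 1629 and 1114 in mut cells. All 4 mut changes lay above all 4 WT changes for 2254 genes (15.2%) and below them for 770 (5.18%). The median interaction over all genes was 0.0845 log2.

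The split of the interaction calls also depended on the scaling of the libraries. With library-size scaling the median gene changed by -0.176 log2 in WT and by -0.098 in mut cells, and with TMM factors by 0.00139 and -0.0119. TMM factors gave 860 interaction calls, 443 higher and 417 lower, of which 726 were among the 1434 in the same direction. DESeq2 gave 686 higher and 581 lower calls. With the series as a block, which compares the paired libraries, there were 2782 calls (2092 higher, 690 lower), which held 1433 of the 1434. Summing the replications, which leaves 2 clones a side, gave 312 calls (229 higher, 83 lower), 301 of them shared. Without series 1-2 there were 725 calls, without 27-2 there were 1234, and without both 552. Leaving out mut 24 h 65-1 alone gave 898. GEO's labels mark the replications as separate samples, and p-values of the fits that keep them apart measure the spread between these samples. Such p-values do not measure the spread between clones.

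**Figure D1:**
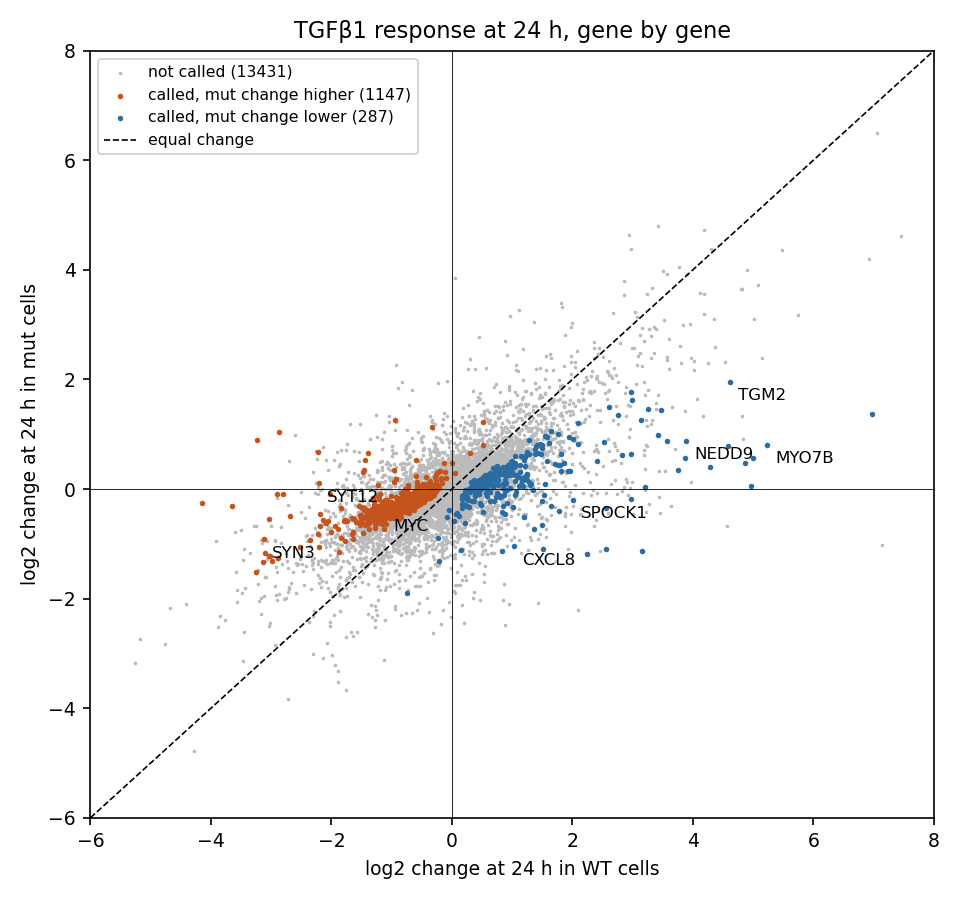
Fitted log2 change at 24 h in WT cells (horizontal axis) and mut cells (vertical axis) for 14865 genes, with 1147 genes of higher mut change in orange, 287 of lower mut change in blue, genes not called in grey and equal change on the dashed line. Most coloured points lie between the dashed line and the horizontal zero line, where mut cells changed in the same direction as WT cells and by less.

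Sorted by the signs of the fitted changes, 1059 of the 1434 genes (73.8%) fell in WT and fell less in mut cells, and 202 (14.1%) rose in WT and rose less in mut cells. All of these passed the test in WT cells, and 610 of the 1059 and 101 of the 202 passed it in mut cells. For 83 genes the WT change was negative and the mut change positive, and for 80 the reverse. A larger response in mut cells was rare, with 5 larger rises and 5 larger falls. With TMM factors 421 of the 1059 smaller falls, 199 of the 202 smaller rises, 5 of the 5 larger falls and 0 of the 5 larger rises were called in the same direction. The median gene of the smaller falls changed by -0.721, -0.702, -0.617 and -0.723 log2 in WT series 27-1, 27-2, 2-1 and 2-2. In mut series 1-1, 1-2, 65-1 and 65-2 it changed by -0.317, -0.176, -0.234 and -0.238. The median gene of the smaller rises changed by 0.854 to 0.964 in the WT series and by 0.112 to 0.409 in the mut series, with the lowest value in 1-2.

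Levels of the called genes were compared next, to see at which of the 2 states the genotypes were apart. For 1269 of the 1434 genes (88.5%) the gap between mean mut and mean WT log2 CPM was larger at 24 h than in solvent, against 64.7% of all genes tested. For smaller rises the median gap, mut minus WT, was 0.0266 in solvent and -0.555 at 24 h. For smaller falls it was -0.0563 in solvent and 0.393 at 24 h. The interaction is the difference of these gaps, so the calls are not independent of them. For 165 genes the larger gap was in solvent, and several of the genes with the largest interactions, described below, are among those that differed before treatment.

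Among genes of at least 10 CPM whose paired changes did not overlap, the 10 most negative interactions included those of NEDD9, TGM2, HMOX1, SPOCK1, CLIC3, CXCL8, MMP2, CXCL1 and NOX5. Each rose in WT cells. NEDD9 encodes a scaffold of focal adhesions that is phosphorylated by FAK and SRC kinases (ENSG00000111859, chromosome 6, 11183298 to 11382348). In WT series 27-1, 27-2, 2-1 and 2-2 it went from 3.44, 4.77, 1.98 and 1.94 CPM in solvent to 38.8, 54.4, 39.7 and 36.2 CPM at 24 h. In mut series 1-1, 1-2, 65-1 and 65-2 it went from 15.8, 21.4, 35.0 and 39.6 to 43.2, 41.6, 50.1 and 62.3 CPM. All mut solvent libraries were above all WT solvent libraries, whereas the genotypes overlapped at 24 h. NEDD9 rose by 3.88 ± 0.46 log2 (SE) in WT and by 0.89 ± 0.24 in mut cells, which gave an interaction of -3.00 ± 0.52 (limma-voom adjusted p = 0.000799).

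TGM2, tissue transglutaminase, crosslinks matrix proteins (ENSG00000198959, chromosome 20, overlapping RPRD1B on the other strand). It went from 39.9, 35.0, 27.2 and 14.7 to 636, 772, 665 and 648 CPM in the WT series. In the mut series it went from 52.9, 101, 68.3 and 64.6 to 323, 213, 259.5 and 300.3 CPM. Here the mut libraries were higher in solvent and lower at 24 h, without overlap in either state. The WT rise of 4.62 ± 0.25 log2 and the mut rise of 1.96 ± 0.22 gave an interaction of -2.66 ± 0.34 (adjusted p = 2.8e-05). SPOCK1, a secreted proteoglycan of the testican family, rose by 2.01 ± 0.16 in WT cells. Its WT levels were 22.2, 34.3, 23.7 and 23.9 CPM in solvent and 87.0, 111, 109.9 and 105 CPM at 24 h. Its mut levels were 38.4, 56.1, 52.1 and 55.2 CPM in solvent and 41.3, 39.7, 44.6 and 49.5 CPM at 24 h. The interaction of SPOCK1 was -2.20 ± 0.22 (adjusted p = 1.12e-06), with a mut change of -0.19 ± 0.15 that did not pass the test (adjusted p = 0.381).

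Genes of oxidant metabolism were among the 10. HMOX1, which degrades heme, went from 1.26, 1.53, 1.76 and 2.97 to 12.0, 20.4, 22.7 and 25.0 CPM in WT series, and from 1.99, 3.19, 2.78 and 1.77 to 4.23, 4.75, 4.31 and 5.50 CPM in mut series. Solvent levels overlapped and treated levels did not. Its interaction was -2.44 ± 0.52 (adjusted p = 0.00448). NOX5, a calcium-regulated NADPH oxidase, rose by 3.14 ± 0.24 in WT and 1.25 ± 0.35 in mut cells (interaction -1.89 ± 0.43, adjusted p = 0.00608). CLIC3, of the intracellular chloride channel family, had mean WT levels of 2.81 ± 0.736 CPM before and 9.54 ± 2.25 CPM after TGFβ1 (SD, n = 4). Its mean mut levels were 15.4 ± 5.78 and 11.2 ± 2.21 CPM, and its interaction was -2.18 ± 0.39 (adjusted p = 0.000997).

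**Figure D2:**
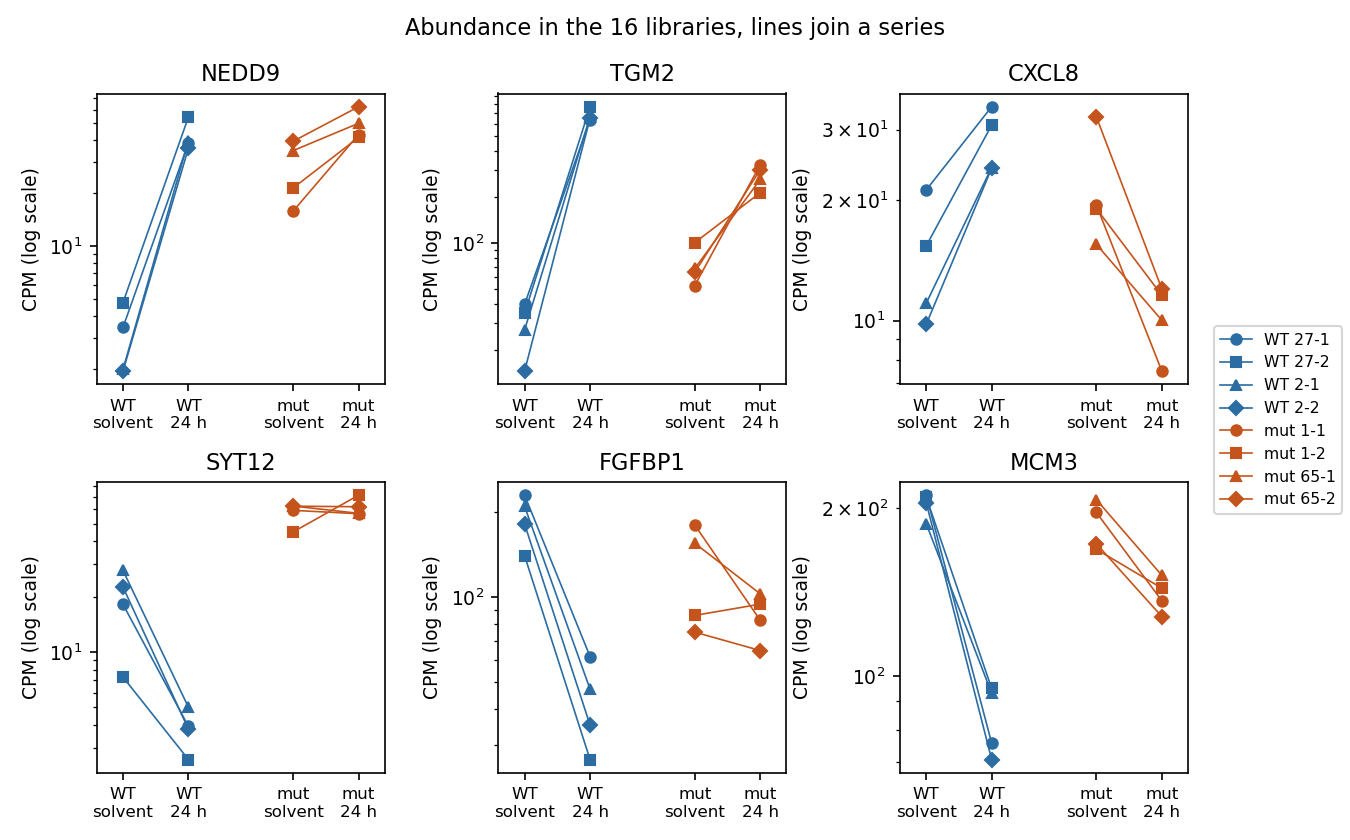
CPM on a log axis in the 16 libraries for NEDD9, TGM2, CXCL8, SYT12, FGFBP1 and MCM3, with WT series in blue, mut series in orange and a line joining solvent and 24 h of a series. NEDD9 and SYT12 differed between genotypes in solvent already, CXCL8 rose in every WT series and fell in every mut series, and MCM3 started at 187 to 211 CPM in WT and 169 to 207 CPM in mut series and fell further in WT.

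CXCL8 and CXCL1, chemokines that attract neutrophils, rose in WT and fell in mut cells. CXCL8, also known as interleukin 8 (ENSG00000169429, chromosome 4, 73740519 to 73743716), went from 21.2, 15.4, 11.1 and 9.80 to 34.2, 30.8, 24.1 and 24.0 CPM in the WT series. In the mut series it went from 19.4, 19.05, 15.5 and 32.3 to 7.49, 11.6, 10.0 and 12.0 CPM. Solvent levels overlapped between genotypes, every WT series rose, every mut series fell, and at 24 h each WT library was above each mut library. The changes were 1.02 ± 0.24 and -1.05 ± 0.26 log2, and the interaction was -2.07 ± 0.35 (adjusted p = 0.000703). CXCL1 moved likewise, with a WT rise of 0.83 ± 0.21 and a mut change of -1.14 ± 0.24 (interaction -1.97 ± 0.32, adjusted p = 0.000433). CXCL3, below 2 CPM in each of the 16 libraries, had an interaction of -2.60 ± 0.46 (adjusted p = 0.000932). CXCL2 fell by 1.31 in mut cells while its WT change was -0.21 ± 0.25 (interaction -1.09 ± 0.33, adjusted p = 0.0347). CXCL1, CXCL2 and CXCL3 are close paralogs, and reads shared between them could have been split by the counting.

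CSF3, the granulocyte colony-stimulating factor, went from 25.1, 33.9, 32.9 and 22.8 to 43.97, 80.3, 57.2 and 60.6 CPM in WT series, and from 15.7, 18.2, 10.9 and 13.2 to 17.5, 17.4, 11.1 and 9.92 CPM in mut series. It rose in WT cells and not in mut cells, whose levels were below all WT levels (interaction -1.12 ± 0.29, adjusted p = 0.0146). In the list of chemokines and cytokines 5 of 31 tested members were called, each with a lower change in mut cells. Of all genes tested 1.93% were called lower. The median interaction of the list was -0.45, beside 0.0845 over all genes. This median was -0.027 without WT 24 h 27-1, -0.25, -0.27 and -0.22 without WT solvent 2-2, mut solvent 65-1 and mut 24 h 65-2, -0.21 with the block and -0.18 for sums of replications. The block gave 8 lower and 2 higher calls, and the sums of replications 3 lower ones. Without series 27-2 and 1-2 there were 3.

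The promoter sequences of both chemokines are shown because AP-1 is the factor family of the edited gene. They are the 250 bases before the gene start from RefSeq (GRCh38.p14), 5′ to 3′ on the gene's strand, with matches to the AP-1 letters TGANTCA in capitals, searched on both strands. FGFBP1, one of the genes with a positive interaction, is shown beside them. CXCL8 is on the plus strand at chr4:73740319-73740568, CXCL1 on the plus strand at chr4:73869143-73869392 and FGFBP1 on the minus strand at chr4:15938741-15938990.
CXCL8: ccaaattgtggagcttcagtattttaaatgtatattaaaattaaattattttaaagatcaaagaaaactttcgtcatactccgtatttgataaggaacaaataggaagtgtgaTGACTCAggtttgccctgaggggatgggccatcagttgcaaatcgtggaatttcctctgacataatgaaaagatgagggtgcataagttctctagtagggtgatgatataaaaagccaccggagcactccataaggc
CXCL1: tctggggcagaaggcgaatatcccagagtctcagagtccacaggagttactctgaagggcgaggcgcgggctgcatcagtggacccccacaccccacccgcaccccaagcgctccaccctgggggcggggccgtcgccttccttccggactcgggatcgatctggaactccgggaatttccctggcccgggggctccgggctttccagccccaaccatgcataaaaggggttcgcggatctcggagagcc
FGFBP1: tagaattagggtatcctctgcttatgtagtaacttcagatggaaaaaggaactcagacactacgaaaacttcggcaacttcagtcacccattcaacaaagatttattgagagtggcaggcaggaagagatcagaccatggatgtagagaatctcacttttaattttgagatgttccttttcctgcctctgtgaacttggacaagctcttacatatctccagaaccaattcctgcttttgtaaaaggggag

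The CXCL8 stretch held 1 match, TGACTCA, with its first base at -137 from the start, and the CXCL1 and FGFBP1 stretches held 0. Of 35116 gene starts in the RefSeq table, 6.57% held the AP-1 letters in this window. By gene it was 784 of 11690 tested genes with a promoter in the table (6.71%), 25 of 244 genes with a lower mut change (10.2%) and 36 of 937 with a higher mut change (3.84%). Of the 20 genes with the largest interactions, 11 had a promoter in the table and 2 of these held the letters in at least 1 of their starts, CXCL8 and RIPOR2. A match describes the letters of this window and is not evidence of binding.

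Most matrix genes rose in WT cells, and 4 had a lower change in mut cells. Of 44 tested members of the matrix and mesenchymal list, 33 rose in WT and 26 in mut cells. The shares of rises over all genes tested were 14.1% and 6.75%. The interaction was called for SPOCK1, TGFBI, LOX and P4HA2, with a list median of -0.24 (-0.44 without WT solvent 27-2, with 6 calls). Of all genes tested, 1.93% were called lower and 9.65% in either direction. TGFBI, a secreted protein that binds collagens and integrins, went from 1164, 1641, 1091 and 918 to 10865, 12334, 10851 and 11219 CPM in WT series. In mut series it went from 740.0, 1837, 686 and 566 to 3303, 2127, 2155 and 2004 CPM. Series 1-2 began highest among the mut series and changed least. The interaction was -1.81 ± 0.33 (adjusted p = 0.00132). LOX, which crosslinks collagen and elastin, rose by 1.79 ± 0.21 in WT with a mut change of 0.44 ± 0.17 (interaction -1.34 ± 0.27, adjusted p = 0.00304). P4HA2, a collagen prolyl hydroxylase subunit, had an interaction of -0.37 ± 0.11 (adjusted p = 0.0363). With the block 8 members were lower and 1 higher, and DESeq2 called 7 lower.

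Most genes of pericellular proteolysis rose in WT cells, and 4 members of their list had a lower change in mut cells. Of 29 tested members of the list of proteases and inhibitors, 19 rose in WT and 15 in mut cells. Among all genes tested 14.1% and 6.75% rose, 1.93% were called lower and 7.72% higher. MMP2, gelatinase A, went from 4.17, 7.53, 3.11 and 2.42 to 31.1, 72.7, 40.2 and 40.3 CPM in WT series. In mut series it went from 7.05, 12.9, 10.6 and 9.19 to 32.4, 21.3, 26.8 and 25.3 CPM. The genotypes overlapped in both states, but each WT series rose more than each mut series (interaction -2.04 ± 0.48, adjusted p = 0.00759). MMP14, the membrane protease that activates MMP2, and TIMP2, an inhibitor that takes part in this activation, had interactions of -0.66 ± 0.15 (adjusted p = 0.00565) and -0.77 ± 0.13 (adjusted p = 0.000512). The paired TIMP2 change was 0.78 to 1.08 in WT and 0.06 to 0.20 in mut series, without overlap. PLAU, urokinase, had an interaction of -1.20 ± 0.35 (adjusted p = 0.0269). ADAMTSL4 was the 1 member with a higher mut change (1.02 ± 0.25, adjusted p = 0.00951), a call that was lost without series 1-2, and it overlaps MCL1. The median interaction of the list was -0.30, -0.45 without WT solvent 27-1 and -0.20 without series 1-2, and the block gave 7 lower and 2 higher calls.

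Part of the focal adhesion and actin genes had a lower change in mut cells. In the list of integrins, laminins and focal adhesion, 31 of 42 tested members rose in WT and 22 in mut cells, and the interaction was lower for 12 and higher for 1, DST. The 12 were COL17A1, ITGA5, PXN, FERMT2, LAMA3, ITGAV, TNS1, FERMT1, NEDD9, LAMB1, PTK2B and PTK2. The shares over all genes tested were 14.1% and 6.75% for rises, 1.93% for lower and 7.72% for higher calls. FERMT1, the kindlin that activates integrins in epithelia, went from 141, 151, 145 and 129 to 323, 329.9, 343 and 388 CPM in WT series, and from 95.3, 121, 97.7 and 99.3 to 125, 105, 107 and 115 CPM in mut series. Mut levels were below WT levels in both states, and their change of 0.13 ± 0.12 did not pass the test (interaction -1.15 ± 0.17, adjusted p = 0.000109). TNS1, tensin 1, went from 15.1, 8.13, 16.8 and 13.0 to 44.2, 40.3, 51.4 and 47.7 CPM in WT series, and from 42.6, 35.7, 48.0 and 45.8 to 58.6, 40.1, 59.4 and 59.4 CPM in mut series. Mut solvent libraries were above WT solvent libraries and overlapped with treated WT libraries (interaction -1.49 ± 0.27, adjusted p = 0.00109).

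Smaller interactions were called for the integrin subunit ITGAV (-0.65 ± 0.17, adjusted p = 0.0139), for LAMA3, the alpha chain of laminin 332 (-0.89 ± 0.25, adjusted p = 0.0225), and for PTK2, which encodes FAK (-0.33 ± 0.07, adjusted p = 0.00366). The median interaction of this list was -0.28. The number of lower calls was 20 with the block (and 3 higher), 4 for sums of replications, 10 without series 27-2 and 4 without 1-2. It was 6 or 7 when any 1 of WT solvent 27-1, WT solvent 2-2, WT 24 h 2-2, mut solvent 1-2, mut solvent 65-2, mut 24 h 65-1 or mut 24 h 1-2 was left out.

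In the actin and contractility list 6 of 31 tested members were called, each with a lower change in mut cells (median -0.14, and -0.23 with TMM factors). Lower calls made up 1.93% of all genes tested. MYO7B, a myosin of epithelial microvilli, went from 0.0839, 0.401, 0.270 and 0.101 CPM to 3.82, 10.7, 8.53 and 7.58 CPM in WT series. In mut series it went from 0.444, 1.44, 0.379 and 0.483 to 1.401, 0.799, 1.13 and 0.843 CPM. At 24 h all WT libraries were above all mut libraries, and the interaction was -4.43 ± 1.02 (adjusted p = 0.00698). The solvent values in WT series 27-1 and 2-2 were close to 3 counts (0.0629 and 0.0756 CPM). The size of this interaction is therefore uncertain. MYO10, the motor of filopodia, had paired changes of 0.56 to 0.76 in WT and -0.35 to 0.11 in mut series (interaction -0.68 ± 0.12, adjusted p = 0.000676). MSN, CALD1, TAGLN2 and CNN3, which bind or regulate actin filaments, had interactions of -0.38, -0.33, -0.44 and -0.51. CNN3 did not pass the test in WT cells (0.08 ± 0.08) and fell by 0.43 in mut cells. The block gave 10 lower calls in this list and sums of replications gave 2.

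Receptors of the TGFβ pathway were among the genes with a lower change in mut cells. Of 37 tested members of the list of signalling and feedback genes, 20 rose in WT and 17 in mut cells, and 4 had a lower and 1 a higher change in mut cells. Over all genes tested 14.1% and 6.75% rose, 1.93% were called lower and 9.65% in either direction. TGFBR1, the type I receptor, was at 47.8, 45.8, 40.2 and 45.7 CPM in WT solvent and 78.4, 82.7, 93.4 and 78.6 CPM in WT 24 h libraries. It was at 39.9, 49.2, 35.0 and 39.4 CPM in mut solvent and 52.3, 41.9, 43.3 and 44.1 CPM in mut 24 h libraries. Solvent levels overlapped, and treated WT levels were above all others (interaction -0.73 ± 0.16, adjusted p = 0.00500). ACVR1, another type I receptor, had an interaction of -0.51 ± 0.12 (adjusted p = 0.00937).

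The feedback inhibitor SMAD7 went from 11.2, 14.4, 10.9 and 11.3 to 32.1, 35.8, 33.0 and 33.4 CPM in WT series and from 12.8, 15.3, 12.3 and 16.5 to 25.3, 25.8, 21.6 and 26.3 CPM in mut series. Solvent levels overlapped and treated WT levels were higher (interaction -0.70 ± 0.14, adjusted p = 0.00205). SMURF1, a ubiquitin ligase that acts with SMAD7, had an interaction of -0.55 ± 0.12 (adjusted p = 0.00440). SKI, a repressor of SMAD activity, rose by 0.51 ± 0.06 in WT and 0.81 ± 0.06 in mut cells. Its interaction of 0.30 ± 0.09 had an adjusted p of 0.0284 with library-size scaling and 0.216 with TMM factors, where it was not called. Sums of replications gave 1 lower call in this list.

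**Figure D3:**
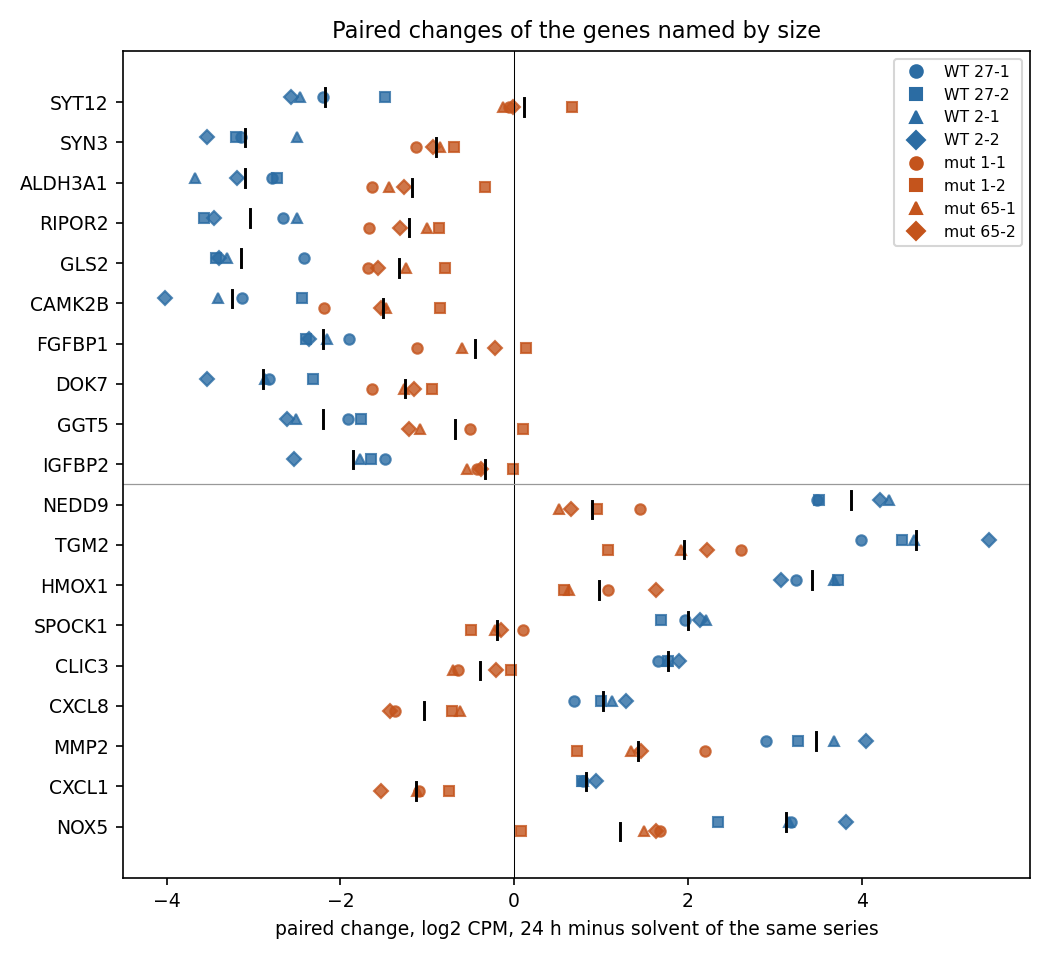
Paired log2 CPM changes (24 h minus solvent) of the named genes with the most positive and the most negative interactions, 1 point a series, WT in blue and mut in orange, with black bars at the means of 4. The colours do not overlap in any gene because the choice of these genes required it, and the mut series 1-2 (orange square) lies furthest from the WT points in several of them.

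The 10 most positive interactions belonged to SYT12, SYN3, ALDH3A1, RIPOR2, GLS2, CAMK2B, FGFBP1, DOK7, GGT5 and IGFBP2, all of which fell in WT cells. SYT12, a synaptotagmin-family membrane protein (ENSG00000173227, chromosome 11, 67006778 to 67050863), went from 18.2, 7.30, 27.8 and 22.5 to 3.93, 2.597, 5.00 and 3.80 CPM in WT series. In mut series it went from 59.0, 45.0, 62.2 and 62.1 to 56.5, 71.3, 56.8 and 61.7 CPM. Mut levels were above WT levels in both states and did not fall (change 0.11 ± 0.21, adjusted p = 0.742), and the interaction was 2.32 ± 0.47 (adjusted p = 0.00281). FGFBP1, a carrier that releases fibroblast growth factors from the matrix (ENSG00000137440, chromosome 4), went from 229, 139.8, 209 and 181 to 61.5, 26.5, 47.1 and 35.2 CPM in WT series. The mut series went from 179.5, 86.0, 155 and 75.0 to 82.7, 94.2, 102 and 64.6 CPM. Solvent levels overlapped, and at 24 h each mut library was above each WT library (interaction 1.74 ± 0.40, adjusted p = 0.00628).

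ALDH3A1, an aldehyde dehydrogenase of squamous and corneal epithelia, went from 174, 84.9, 256 and 411 to 25.3, 12.8, 20.0 and 44.8 CPM in WT series, and from 267, 259.6, 285 and 291 to 85.8, 205, 105 and 121 CPM in mut series. It fell in both genotypes, with the smallest fall in series 1-2 (interaction 1.93 ± 0.54, adjusted p = 0.0238). IGFBP2, an insulin-like growth factor binding protein, fell by 1.84 in WT cells, from a mean of 50.1 ± 14.1 to 13.8 ± 4.01 CPM (SD, n = 4). Its mean mut levels were 271 ± 59.2 CPM in solvent and 212 ± 31.5 CPM at 24 h (interaction 1.5012 ± 0.35, adjusted p = 0.00699). GLS2, mitochondrial glutaminase 2, had an interaction of 1.81 ± 0.39 (adjusted p = 0.00423) from near-equal solvent levels of 15.8 ± 5.11 and 17.6 ± 1.65 CPM. For RIPOR2 the solvent levels were 12.0 ± 4.51 CPM in WT and 95.2 ± 11.04 CPM in mut cells. RIPOR2 and GGT5 were not called with TMM factors (adjusted p = 0.0581 and 0.0658). SYN3 overlaps TIMP3, CAMK2B overlaps YKT6 and GLS2 overlaps SPRYD4, each on opposite strands.

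Genes of DNA replication fell in WT cells, and most had a higher change in mut cells. All 44 tested members of the replication and G1/S list fell in WT cells, and 24 fell in mut cells. These counts were 44 and 14 with TMM factors and 44 and 41 with the block. The interaction was called for 37 of 44, each with a higher change in mut cells, and the median was 0.79 (0.70 with TMM factors). Of all genes tested, 38.0% fell in WT and 17.1% in mut cells, and 7.72% were called higher. For 42 of 44 all mut changes lay above all WT changes, as they did for 15.2% of all genes tested. The list median of the paired changes was -1.43, -1.11, -0.92 and -1.35 in WT series 27-1, 27-2, 2-1 and 2-2, and -0.60, -0.30, -0.40 and -0.43 in mut series 1-1, 1-2, 65-1 and 65-2. MCM3, a subunit of the replicative helicase, went from 211, 209, 187 and 204 to 75.8, 94.95, 93.1 and 70.8 CPM in WT series. The mut series went from 196, 169, 207 and 172 to 136, 144, 151 and 128 CPM. Solvent levels overlapped and treated mut levels were above treated WT levels (interaction 0.88 ± 0.19, adjusted p = 0.00424).

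CDT1, which loads the helicase at origins, started at means of 52.3 ± 3.82 CPM in WT and 48.6 ± 6.18 CPM in mut cells (SD, n = 4). It fell to 17.2 ± 2.79 and 33.1 ± 3.25 CPM (interaction 1.07 ± 0.21, adjusted p = 0.00244). ORC1, of the origin recognition complex, had an interaction of 1.11 ± 0.25 (adjusted p = 0.00529), MCM2 of 0.93 ± 0.21 (adjusted p = 0.00623), CHAF1B, a histone chaperone subunit, of 0.79 ± 0.18 (adjusted p = 0.00608) and MCM7 of 0.76 ± 0.18 (adjusted p = 0.00706). The count of 37 became 23 with TMM factors, 44 with the block, 15 for sums of replications, 31 without series 27-2, 16 without 1-2 and 9 without both. It was 22 without WT 24 h 2-2 or without mut 24 h 65-1.

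The promoters of MCM3 and CDT1 are shown because E2F factors control this gene group in many cell types. They are the 250 bases before the RefSeq gene start (GRCh38.p14), 5′ to 3′ on the gene's strand, with matches to the E2F letters TTTGGCGC or TTTCCCGC on either strand in capitals. MCM3 is on the minus strand at chr6:52284743-52284992 and CDT1 on the plus strand at chr16:88803539-88803788.
MCM3: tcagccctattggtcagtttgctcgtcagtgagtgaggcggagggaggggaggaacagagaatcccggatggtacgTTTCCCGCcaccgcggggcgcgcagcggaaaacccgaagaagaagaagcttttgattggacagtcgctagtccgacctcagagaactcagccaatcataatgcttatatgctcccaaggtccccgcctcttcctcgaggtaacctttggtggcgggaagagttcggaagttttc
CDT1: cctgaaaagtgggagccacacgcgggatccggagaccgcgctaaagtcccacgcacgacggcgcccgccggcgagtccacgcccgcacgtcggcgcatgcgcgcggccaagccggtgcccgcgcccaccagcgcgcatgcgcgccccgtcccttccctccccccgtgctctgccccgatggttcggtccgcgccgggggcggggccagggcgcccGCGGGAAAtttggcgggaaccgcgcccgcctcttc

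In MCM3 the match began at -174 and in CDT1, as its reverse complement GCGGGAAA, at -35. These letters were found before 1.93% of all 35116 starts and before 435 of 11690 tested genes (3.72%). They were present in 14 of the 38 list members with a promoter in the table (36.8%), in 67 of 937 genes with a higher mut change (7.15%) and in 4 of 244 with a lower mut change (1.64%). No test was made of these shares.

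Mitotic genes moved the same way with fewer calls. All 41 tested members fell in WT cells and 24 in mut cells (41 and 9 with TMM factors, 41 and 41 with the block), and the interaction was called for 8, each higher, with a median of 0.52. The shares over all genes tested were 38.0% and 17.1% for falls and 7.72% for higher calls. CDK1, the mitotic kinase, had an interaction of 0.71 ± 0.19 (adjusted p = 0.0169), the spindle checkpoint genes BUB1B and MAD2L1 had 0.71 ± 0.18 and 0.76 ± 0.20 (adjusted p = 0.0136 and 0.0148), and TOP2A, which untangles DNA, had 0.60 ± 0.17 (adjusted p = 0.0288). MKI67, a proliferation marker, had a WT change of -1.05 ± 0.19 and a mut change of -0.41 ± 0.19, and its interaction of 0.64 ± 0.26 was not called (adjusted p = 0.127) except with the block (0.0222). The count of 8 (36 at an unadjusted p under 0.05) became 35 with the block, 3 with TMM factors, 1 without series 1-2 and 0 in limma-voom for sums of replications (25 at an unadjusted p under 0.05). Among single libraries it was 3 without WT solvent 27-1, WT 24 h 2-2, mut 24 h 65-1 or mut 24 h 1-2, 4 without WT solvent 27-2 or mut solvent 65-2, 5 without mut solvent 1-2 and 17 without WT 24 h 27-2.

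Of 19 tested G1 regulators 4 had a higher change in mut cells, CDK4, MYC, CDC25A and RBL1. Higher calls made up 7.72% of all genes tested. CDK4, the kinase partner of D-type cyclins, was at 128, 135, 151 and 148 CPM in WT solvent and 61.6, 69.0, 76.4 and 72.7 CPM in WT 24 h libraries. In mut series it went from 136, 133, 139 and 141 to 104, 119, 108 and 109 CPM. Every series fell, and treated mut levels were above treated WT levels (interaction 0.69 ± 0.09, adjusted p = 4.04e-05). CDK4 overlaps TSPAN31 and MARCHF9 on the opposite strand. MYC, whose repression is part of the TGFβ cytostatic program, had a WT change of -1.10 ± 0.08 and a mut change of -0.42 ± 0.08 (interaction 0.68 ± 0.12, adjusted p = 0.000703). CDKN1A, the p21 inhibitor, rose by 0.38 ± 0.08 in WT and 0.27 ± 0.07 in mut cells with an interaction of -0.11 ± 0.11 (adjusted p = 0.601). CDKN2B was not analysed here. The G1 count was 2 with TMM factors, for sums of replications, without series 1-2 and without WT 24 h 27-1, mut solvent 65-2 or mut 24 h 65-1.

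Ribosome biogenesis factors fell in all 34 tested cases in WT cells and in 20 in mut cells. These counts were 33 and 11 with TMM factors and 34 and 24 with the block. The interaction was called for 27, each higher (median 0.46). Among all genes tested 38.0% fell in WT and 17.1% in mut cells, and 7.72% were called higher. NCL, nucleolin, went from 1426, 1476, 1428 and 1365 to 692, 716, 769 and 720.4 CPM in WT series, and from 1339.5, 1281, 1383 and 1266 to 1009, 1108, 1132 and 1068 CPM in mut series. Treated WT libraries were the lowest and did not overlap with treated mut libraries (interaction 0.69 ± 0.10, adjusted p = 0.000102). Interactions of POLR1B, a subunit of RNA polymerase I, NOP14 and PES1, both of ribosomal subunit assembly, were 0.61 ± 0.11, 0.47 ± 0.08 and 0.51 ± 0.09. The count of 27 was 22 with TMM factors, 31 with the block, 26 without series 27-2 and 25 without 1-2, and it was 10 for sums of replications. NCL hosts small nucleolar RNAs whose genes overlap it. Other genes named here that overlap a neighbour are MCM7 with AP4M1, CHAF1B with MORC3, BUB1B with PAK6, PES1 with TCN2, SMURF1 with TRRAP, LOX with SRFBP1, P4HA2 with PDLIM4, PLAU with C10orf55 and TMEM97 with IFT20.

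Among EMT regulators and cadherins, the classical readouts of the transition, few interactions were called. Over all genes tested the share called was 9.65%. SNAI1, encoding SNAIL1, went from 0.210, 0.778, 0.225 and 0.227 to 7.08, 7.20, 5.12 and 6.11 CPM in WT series and from 0.508, 0.674, 0.758 and 0.563 to 4.55, 3.65, 3.42 and 3.56 CPM in mut series. It rose in both genotypes, and the treated levels did not overlap. Its interaction of -1.77 ± 0.60 had a limma-voom adjusted p of 0.0596 and was not called, while the edgeR, DESeq2 and block fits called it. The interactions of SNAI2, ZEB1, CDH1, CDH2 and VIM were -0.39 ± 0.21, -0.12 ± 0.34, -0.16 ± 0.35, -0.40 ± 0.23 and -0.24 ± 0.17, and those of FN1 and TNC were -0.92 ± 0.65 and -0.66 ± 0.43. EPCAM, an epithelial adhesion molecule, had 0.57 ± 0.30 (adjusted p = 0.246, and 0.0481 with the block). These interactions had adjusted p between 0.246 and 0.883. For FN1, fibronectin, the paired change was 0.12 in mut series 1-2 and 2.58 to 3.79 in the other mut series. Leaving out WT 24 h 27-2 moved the ZEB1 interaction to 0.0445, and leaving out WT solvent 27-2 or WT 24 h 27-1 moved that of CDH1 to 0.0415 or 0.0857. In the list of EMT and epithelial transcription regulators 1 of 22 tested members was called, ESRP2, an epithelial splicing factor (0.49 ± 0.12, adjusted p = 0.00871). It fell in both genotypes, overlaps NFATC3, and the list's median of 0.15 became -0.022 without WT 24 h 27-2 and 0.046 without WT solvent 2-1.

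Exact two-sided permutation tests were made on the paired changes of JUNB and 17 single genes of known role, 18 tests in all. Replications of the same clone were permuted as separate units, so these p-values do not measure the spread between clones. The smallest possible p of 0.0286 was reached by JUN, FOSL1, SNAI1, SMAD7, MYC and MKI67, and after Benjamini-Hochberg adjustment it became 0.0857 in this permutation family. The mut changes lay below the WT changes for JUN, SNAI1 and SMAD7 and above them for FOSL1, MYC and MKI67. The other 12 exact p-values were between 0.0857 and 0.514. With a prior count of 2 in place of 0.5, 0 of the 18 verdicts changed.

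Of 19 tested AP-1 family members 1 was called, FOS, beside 9.65% of all genes tested. FOS went from 31.3, 21.9, 35.1 and 29.6 to 17.8, 15.4, 16.02 and 16.9 CPM in WT series, and from 39.7, 30.6, 36.6 and 34.4 to 34.6, 41.3, 31.0 and 29.2 CPM in mut series. It fell in WT cells, and its mut change was -0.06 ± 0.15. The interaction was 0.76 ± 0.23 (adjusted p = 0.0343) and was not called with TMM factors (adjusted p = 0.0753), and FOS was called in 17 of 30 alternatives. JUN, the canonical partner of FOS in AP-1, rose by 2.04 ± 0.17 in WT and 1.51 ± 0.16 in mut cells (interaction -0.53 ± 0.23, adjusted p = 0.150). FOSL1 and FOSL2 had interactions of 0.39 ± 0.18 and -0.30 ± 0.19 (adjusted p = 0.177 and 0.349), with 0.0169 and 0.0487 when the series was a block. The block called 2 members higher and 3 lower.

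In limma-voom without the block the remaining lists held few calls, where 9.65% of all genes tested were called. In the EGF family and ERK feedback list 1 of 30 was higher, SPRY1, a feedback inhibitor of receptor kinase signalling with changes of -2.52 ± 0.28 in WT and -1.06 ± 0.18 in mut cells (interaction 1.46 ± 0.33, adjusted p = 0.00604), and 1 was lower, IER3 (-0.45 ± 0.12, adjusted p = 0.0144). In the interferon list 2 of 37 were lower, IRF9, a subunit of the interferon-activated complex ISGF3 (-0.84 ± 0.22, adjusted p = 0.0164), and ISG20, an exonuclease (-0.94 ± 0.24, adjusted p = 0.0144). Both rose in WT cells, and their mut changes were 0.01 ± 0.16 and 0.02 ± 0.18. Among 36 junction genes CTNNA1, alpha-catenin, was lower (-0.31 ± 0.06, adjusted p = 0.00126), among 45 squamous and S100 genes S100A10 (-0.33 ± 0.09, adjusted p = 0.0226), and among 31 sterol and fatty acid genes TMEM97 was higher (0.75 ± 0.22, adjusted p = 0.0321; 0.0711 with TMM factors). The 34 NRF2 and antioxidant genes held ALDH3A1 and HMOX1, in opposite directions. Of 18 keratins limma-voom, edgeR and DESeq2 called 0, with 1 at an unadjusted limma-voom p under 0.05, and with the block 3 were higher and 1 lower. The block gave 7 higher and 2 lower calls in the EGF list, 1 and 6 in the interferon list and 1 and 7 among junction genes. It gave 6 and 3 in the squamous list, 7 and 1 in the NRF2 list and 3 and 0 in the sterol list. Over all 14865 genes tested the block called 2092 higher and 690 lower. Without the block, the medians of these lists lay between -0.21 and 0.10, and single libraries moved them. That of the squamous list was 0.0847, and it was 0.585 without WT 24 h 27-1, 0.327 without WT solvent 27-2 and -0.030 without WT solvent 27-1. The interferon median of -0.21 became -0.063 without WT 24 h 27-1, -0.085 without mut solvent 1-1 and -0.11 without mut 24 h 65-1. No direction is given for the medians of these lists.

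**Figure D4:**
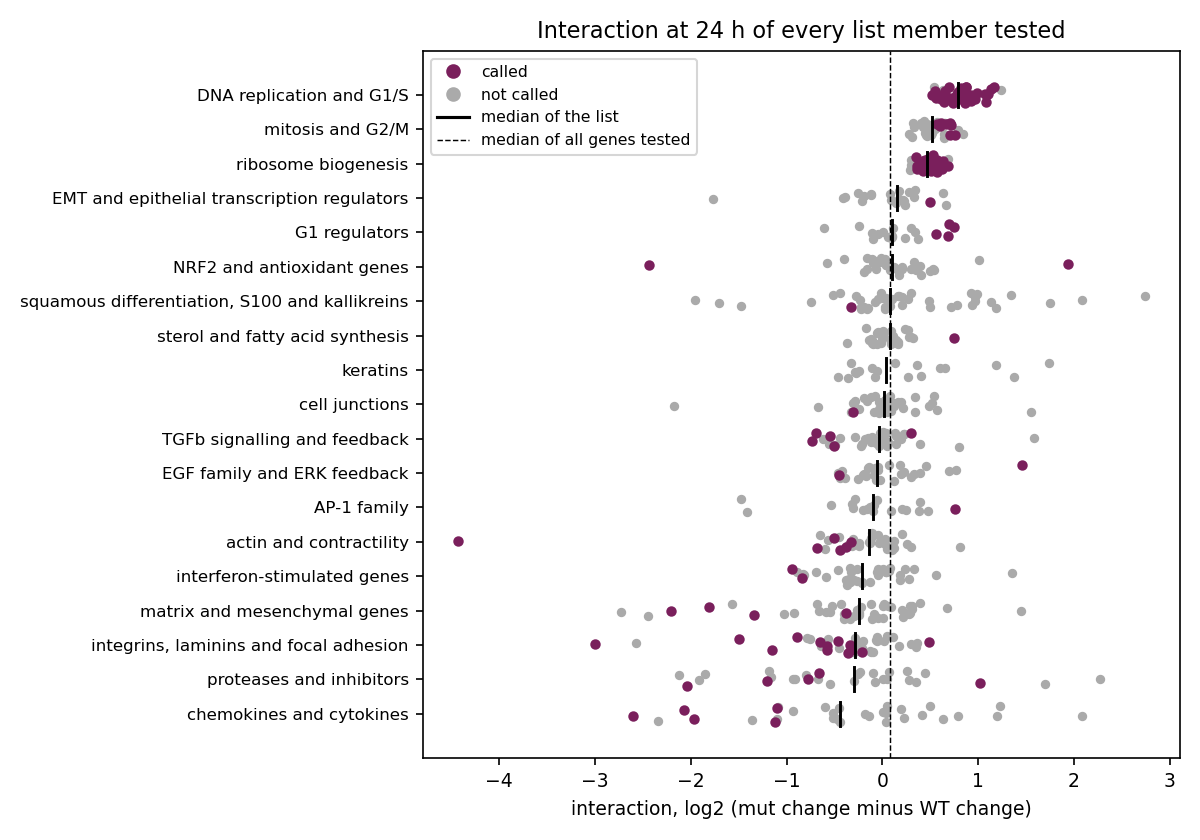
Interaction at 24 h (log2, mut change minus WT change) of every tested member of 19 gene lists, with called genes in purple, genes not called in grey, list medians as black bars and the median of all genes (0.0845) as a dashed line. Members of the replication, mitosis and ribosome biogenesis lists lie to the right of 0 without exception, between 0.27 and 1.24, while squamous and chemokine genes spread widely to both sides with few calls.

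Of the called genes, 5 had larger rises and 5 larger falls in mut cells. By the signs of the fitted changes, 83 were negative in WT and positive in mut cells, and 80 were the reverse. Both changes passed the test for 2 of the 83 and 7 of the 80. PTPRZ1, a receptor tyrosine phosphatase, went from 3.09, 4.36, 2.36 and 2.80 to 8.71, 4.38, 8.003 and 6.46 CPM in mut series, and from 10.4, 10.3, 12.5 and 11.3 to 7.94, 8.24, 10.8 and 8.90 CPM in WT series. It rose in mut cells from a solvent level below all WT libraries, with series 1-2 as the exception (interaction 1.45 ± 0.29, adjusted p = 0.00253). RGS2, which shortens G protein signalling, fell by 0.60 in WT cells, and its mut change was 0.53 ± 0.21 (adjusted p = 0.0641), positive in 4 of 4 series (interaction 1.13 ± 0.28, adjusted p = 0.0122). RARA, a retinoic acid receptor, rose in mut cells with a WT change of 0.01 ± 0.10, and ITPR3, a calcium release channel, rose in both and more in mut cells, with interactions of 0.48 ± 0.13 and 0.36 ± 0.10 (adjusted p = 0.0224 and 0.0173) that were not called with TMM factors (0.104 and 0.114). They overlap RARA-AS1 and UQCC2. MEGF9 and NUDT4B fell in mut cells by 0.50 and 0.39 log2, and their WT changes of -0.08 ± 0.09 and -0.05 ± 0.08 did not pass the test. NUDT4B is a near-identical copy of NUDT4, so its counts are uncertain.

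The same contrast at 6 h and 72 h uses the same solvent libraries, so the 3 times are not independent and are only set side by side. The NEDD9 interactions were -2.10 (adjusted p = 0.194), -3.00 and -3.14 (adjusted p = 0.000298) in the order of 6, 24 and 72 h. FERMT1 had an interaction of -1.09 after 6 h (adjusted p = 0.00486) and of -0.64 after 72 h (adjusted p = 0.0105). The MYC values were 0.43, 0.68 and 0.67, those of CXCL8 -0.68, -2.07 and -2.52, and those of MCM3 0.23, 0.88 and 0.46. The list median of replication genes took the values 0.093, 0.79 and 0.36, and that of mitotic genes 0.027, 0.52 and 0.27. For ribosome biogenesis it was 0.19, 0.46 and 0.35. Differences between the times were not tested.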

How the data were processed

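RNA-seq was made from MCF10A clones with a kit that keeps no strand information (paired-end reads). The authors trimmed reads with Trimmomatic and used STAR to map them to Ensembl GRCh38 and to count reads per gene. The deposited values are whole-number counts without normalization, for 17788 genes, and the unused columns of single samples numbered 0. Tool versions and the strand setting are not given in the sources used here.

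Symbols and coordinates came from GENCODE release 44, which matched 17763 genes. The low-count filter was filterByExpr in edgeR 4.0.16, set to a count of 10 and a total of 15, and left 14865 genes. Library sizes served as scaling, and counts were fitted by limma-voom (limma 3.58.1, R 4.3.3) over 32 libraries in 8 groups of 4, as in the study's methods, with no covariate. The interaction was a contrast of this fit, so its SEs and adjusted p are not tests of the paired changes. Tests were two-sided with Benjamini-Hochberg adjusted p under 0.05 over all genes tested, and every adjusted p in the text is from limma-voom unless named otherwise. Level gaps used log2(CPM + 0.5), and paired changes a prior count of 0.5. The fit was tested on simulated data with known changes. Simulated libraries were drawn independently, without clone or series effects. The simulation therefore cannot test how the calls depend on clones, pairing or scaling.

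Named genes were JUNB, the 10 largest interactions in each direction among called genes (at least 10 CPM in a group, no overlap of paired changes), up to 3 per class, up to 6 called members per list by smallest adjusted p, and 17 genes of known role. Some genes that met this rule are not reported here. Further called list members are named without values where their count is given. The genes, the lists and the rule were chosen with earlier results of these data known. Libraries were paired by the clone and the replication given in their labels. Deviations of solvent and 24 h libraries of a series from their group means correlated at 0.0283 (series 1-2) to 0.627 (series 27-2). Chi-square tests of replicate libraries gave at least 11.7 per degree of freedom, more than counting noise alone, and each library counted once. This excess cannot show that the replications of a clone are independent units of a genotype. Alternatives were TMM factors, edgeR quasi-likelihood, DESeq2 1.42.0, other filters, subsets of libraries, blocks, sums of replications and leaving out libraries. Removal of series 27-2 and 1-2 together was chosen after seeing the data. Floors of 3 counts and model errors do not cover duplicate reads, since the reads carry no molecular identifiers.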

Additional observations from a re-analysis of the deposited data

Results flagged for a closer look

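The response to 24 h of TGFβ1 differed between WT and mut cells for 1434 genes by the test of the interaction.

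Among 84 sets of 4 paired changes, of single genes or as medians of lists, 6 held a value set apart by Dixon's criterion at the 95% level. Chance gives about 1 in 20, and 6 of 84 is near that rate. The sets share the same series and are not independent. In mut series 1-2 the SYT12 change was 0.664 log2, with -0.131 to -0.00928 in the other mut series, and the NOX5 change was 0.079, with 1.49 to 1.68 in the others. The median change of the squamous, S100 and kallikrein list was 0.205 in mut series 1-2 and -0.392 to -0.353 in the other mut series. In WT series 27-1 the GLS2 change was -2.42, with -3.43 to -3.31 in the other WT series. In WT series 2-2 the CXCL1 change was 0.945, with 0.776 to 0.794 in the others, and the median change of the interferon list was -0.364, with -0.149 to -0.109 in the others.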

How the results depend on the processing

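The interaction count of 1434 (1147 higher, 287 lower) became 860 (443 higher, 417 lower) with TMM factors, 1267 (686, 581) in DESeq2, 2782 (2092, 690) with the series as replicate block, 2280 (1173, 1107) with block and TMM factors, 2353 (1762, 591) from the paired changes in limma-trend, 312 (229, 83) for summed replications, 134 (61, 73) at an absolute log2 of at least 1, 725 (579, 146) without series 1-2 and 552 (423, 129) without 1-2 and 27-2. With 1 library left out it was 898 to 1448, with 713 to 1180 higher and 185 to 309 lower. The WT count of 7752 became 1445 at an absolute log2 of at least 1, and was 7107 to 7754 with 1 library left out. The mut count of 3541 became 478 at that minimum and 2161 for summed replications, and was 2365 to 3599 with 1 library left out. Why these counts moved was not tested.

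The 28 genes named for the size or kind of their interaction kept their direction in all 840 values under alternatives, and 740 kept the call. They were chosen from the same libraries as called genes with large interactions and no overlap of paired changes. A kept direction was therefore largely set by this choice. Of the 100 lost calls, 59 came with 1 library left out, in 9 genes, and 13 with summed replications. With the series block 0 of the 28 lost the call. The pairing by series rests on the labels, and a block by replication number alone gave 1671 interaction calls. At this depth the floor of 3 counts limits genes under about 0.0756 CPM.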
